A study of Mus musculus with 4 samples.

Results

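The genes of prostaglandin synthesis and prostaglandin receptors were examined in ureters of adult male mice. The set names 10 genes, 5 for enzymes (Ptgs1, Ptgs2, Ptges, Ptgis and Ptgds) and 5 for receptors (Ptger1, Ptger2, Ptger3, Ptger4 and Ptgfr). A probe set, the group of short probes that reads one transcript, was counted for a gene where that gene was its only annotated symbol, and where a gene had several, the one with the highest mean gave its level. By this rule 9 of the 10 genes were measured, with 20 of the 45037 probe sets tested, out of 18193 named genes in all. Ptgs1 had no probe set under its own symbol and is not analysed here.

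All 4 samples belong to 1 group of ureters from SMGA/EGFP transgenic FVB/N mice, in which a green fluorescent reporter marks tissue that uses smooth muscle gamma actin (gene Actg2). The animals were male adults at Theiler stage 28, and every sample carries the reporter, so no ureter without it was compared. The tube was dissected between kidney and bladder by its fluorescence, each sample was left unpooled, and RNA was amplified in 2 rounds before hybridisation to 1 Affymetrix MOE430 array per sample. The labels do not say that each sample came from a separate animal, so p-values measure only the spread between these samples, which may be technical. With 1 group, the design asks which of the genes lay above array background and how far the samples differed.

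Prostaglandins are short-lived lipid signals made from arachidonic acid, which phospholipases release from membranes. The cyclooxygenases encoded by Ptgs1 and Ptgs2 turn it into the unstable intermediate PGH2, and terminal synthases then make each prostaglandin: PGE2 by Ptges, prostacyclin (PGI2) by Ptgis and PGD2 by Ptgds. PGE2 acts on the EP receptors encoded by Ptger1 to Ptger4 and PGF2-alpha on the FP receptor encoded by Ptgfr. In smooth muscle the receptors that raise cyclic AMP (Ptger2 and Ptger4) are known for relaxation, and those that raise calcium or lower cyclic AMP (Ptger1, Ptgfr and Ptger3) for contraction. Cyclooxygenase inhibitors are used against the pain of an obstructed ureter.

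Levels are log2(intensity + 16) of the deposited intensities, given as mean ± SD over the 4 samples. Each array had its own background threshold, set at the 95th percentile of 85 probe sets that read odour, pheromone and taste receptors, at log2 levels of 7.25, 6.99, 7.57 and 7.36 in replicates 1 to 4. A probe set was called above background where limma's one-sided test of its mean against these thresholds had an adjusted p under 0.05. No probe set's level was set against another's. The 3' to 5' signal ratio, a measure of how far labelling reached along a transcript, lay between 18.8 and 36.9 for Gapdh and between 4.43 and 19.8 for Actb, so probe sets far from the 3' end can read low on these arrays. All 10 smooth muscle markers and 10 of 12 urothelial markers were above background, beside 57.8% of all named genes. The urothelial exceptions, Upk3a and Krt20, lay over the threshold only in replicate 3. That sample also stood apart in genes of another tissue, with all 8 skeletal muscle markers over the threshold against 1, 1 and 2 in replicates 1, 2 and 4.

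By their brightest probe sets, Ptges, Ptgis, Ptger2 and Ptger4 lay over the threshold in all 4 adult ureter samples, and Ptgds and Ptger3 in 3. Ptges, Ptgis and Ptgds among the enzymes and Ptger2, Ptger3 and Ptger4 among the receptors were above background, while Ptgs2, Ptger1 and Ptgfr were not called. That is 6 of the 9 measured genes, beside 57.8% of all named genes by the same call, a share near that background, which is no result about the set as a group. The median of all 9 measured genes lay 2.14 log2 units over the threshold, beside 1.88 for all named genes. The calls of Ptges, Ptgis and Ptger4 were kept under every alternative that was run, while those of Ptgds, Ptger3 and Ptger2 were not. By a plain count without a test, 4 of the 9 (all called except Ptgds and Ptger3) lay over the threshold in all 4 samples, beside 58.4% of all named genes.

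**Figure D1:**
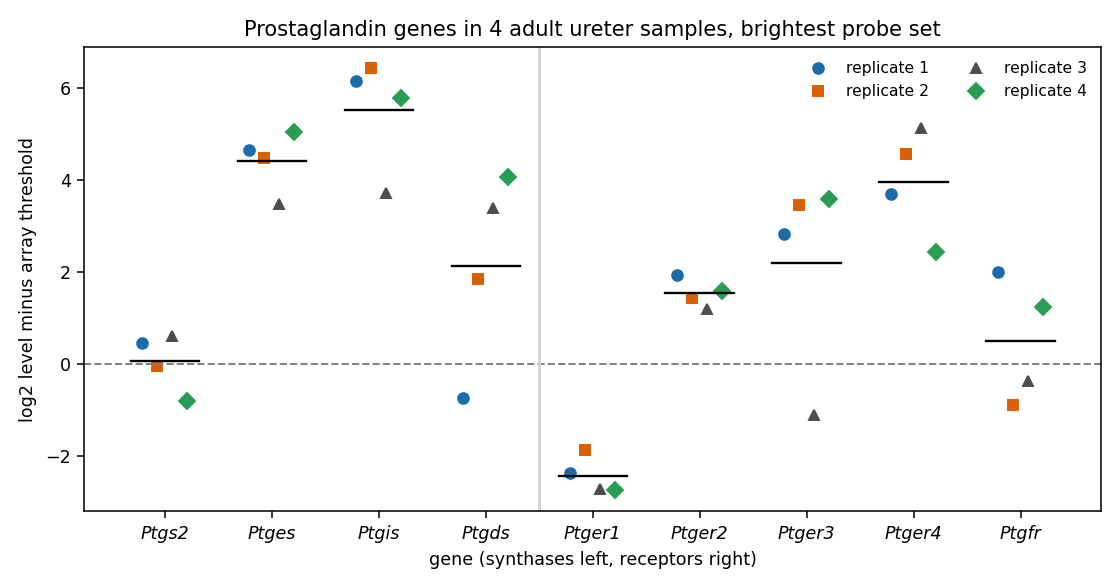
Distance of each gene's log2 level from its array's background threshold (vertical axis, log2 units) for 9 genes, with 1 point per sample and a bar at the mean. The dashed line is the threshold. Ptges, Ptgis, Ptger2 and Ptger4 lie over it in all 4 samples (58.4% of all named genes do), Ptgds and Ptger3 in 3, Ptgs2 and Ptgfr in 2 and Ptger1 in none.

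Ptgis, the prostacyclin synthase, had deposited intensities of 10868, 10924, 2483 and 9012 in replicates 1 to 4. Its level was 12.81 ± 1.03 (SD, n = 4), 5.52 log2 units over the thresholds (adjusted p = 4.11e-06). Replicate 3 was the low sample and the other three lay close together, between 13.14 and 13.42 on the log2 scale against 11.29 in replicate 3. Even there the gene lay 3.72 log2 units over the threshold.

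Ptges, the inducible membrane-bound PGE synthase, had intensities of 3808, 2807, 2111 and 5436 in replicates 1 to 4. Its level was 11.71 ± 0.58 (SD, n = 4), 4.42 log2 units over the thresholds (adjusted p = 1.41e-06). All 3 of its probe sets were above background, and each read highest in replicate 4. The other 2 probe sets had levels of 10.30 ± 0.40 and 10.12 ± 0.41 (SD, n = 4 each), with a spread of under 1 log2 unit between the lowest and the highest sample.

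Ptgds, the lipocalin-type PGD synthase, had the largest SD of the 6 genes called. Its intensities were 75.1, 445, 1976 and 2723 in replicates 1 to 4. Since replicate 1 lay under its threshold, whose intensity was 136, replicate 4 was at least 20.02-fold higher. The level was 9.43 ± 2.25 (SD, n = 4), 2.14 log2 units over the thresholds (adjusted p = 0.0214). Replicate 1 lay under its threshold, at a distance of -0.74 log2 units, and the other samples lay over theirs. The second probe set gave the same order of samples, with intensities of 10.3, 119, 480 and 708, and was not above background (adjusted p = 0.729). The call did not hold without replicate 2 (adjusted p = 0.0588), without replicate 3 (0.0658), without replicate 4 (0.0974), with the threshold at the 99th percentile (0.0628) or with a threshold of the chemosensory median plus 3 median absolute deviations (MAD), over which the mean lay by 0.05 log2 units (1).

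Ptgs2, the cyclooxygenase that many stimuli induce, lay at the threshold. Its intensities were 193, 109, 276 and 78.4 in replicates 1 to 4, and its level was 7.35 ± 0.73 (SD, n = 4). Replicates 1 and 3 lay 0.46 and 0.62 log2 units over their thresholds, and replicates 2 and 4 lay under theirs, at -0.03 and -0.80. The mean distance was 0.06 log2 units (adjusted p = 0.867), which does not show that the transcript was absent. The second probe set lay under the threshold in all 4 samples, so no order of the samples can be given for Ptgs2.

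Ptgs2 is also an immediate early gene, one switched on quickly by many stimuli without new protein synthesis. Of 13 other immediate early genes 11 were above background in the same samples, beside 57.8% of all named genes. Fos, a component of the AP-1 transcription factor, had levels of 14.37, 14.32, 13.60 and 11.57 in replicates 1 to 4, and Egr1, a zinc finger factor, had 14.63, 13.45, 11.35 and 13.50. Fos was thus lowest in replicate 4 and Egr1 in replicate 3.

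Among the receptors, Ptger4, which couples to cyclic AMP production, had intensities of 1947, 3020, 6628 and 878 in replicates 1 to 4. Its level was 11.25 ± 1.21 (SD, n = 4), 3.96 log2 units over the thresholds (adjusted p = 3.17e-05). Replicate 3 was the highest sample and replicate 4 the lowest, 7.55-fold apart in intensity. The second Ptger4 probe set lay under the threshold in all 4 samples, at 5.32 ± 0.82 (SD, n = 4).

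Ptger2, the other cyclic AMP-raising EP receptor, was the steadiest receptor gene called. Its intensities were 568, 327, 421 and 476 in replicates 1 to 4, a 1.74-fold range. The level was 8.83 ± 0.32 (SD, n = 4), 1.54 log2 units over the thresholds (adjusted p = 0.000793). At the threshold of 3 MAD over the median, the gene's distance from it was -0.55 log2 units and it was not called.

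Ptger3, which mainly lowers cyclic AMP, lay over the threshold in 3 samples and under it in one. Its intensities were 1062, 1391, 72.5 and 1965 in replicates 1 to 4. With replicate 3 under its threshold, whose intensity was 174, replicate 4 was at least 11.3-fold higher. The level was 9.49 ± 2.05 (SD, n = 4), 2.20 log2 units over the thresholds (adjusted p = 0.0226), but replicate 3 lay under its threshold, at -1.10. The call did not hold without replicate 1 (adjusted p = 0.0723), without replicate 2 (0.108), without replicate 4 (0.0962), at the 99th percentile (0.0672) or at 3 MAD over the median, where the mean lay 0.10 log2 units over (1). The second probe set lay over the threshold only in replicate 4, by 0.17 log2 units.

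Ptger1 and Ptgfr, receptors that act through calcium release, were not called. Ptger1 lay under the threshold in all 4 samples by both of its probe sets, at 4.87 ± 0.20 for the brighter one (SD, n = 4), a distance of -2.42 log2 units from the thresholds. Ptgfr had a level of 7.79 ± 1.42 (SD, n = 4) and lay over the threshold in 2 samples (adjusted p = 0.383). Its 5 probe sets disagreed on which samples were high. The one with the highest mean had intensities of 597, 52.6, 132 and 374 in replicates 1 to 4, and another had 9.66, 281, 195 and 66.4, so replicate 1 was the highest by one and the lowest by the other. None of the 5 was above background, and no order of the samples can be given for Ptgfr.

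**Figure D2:**
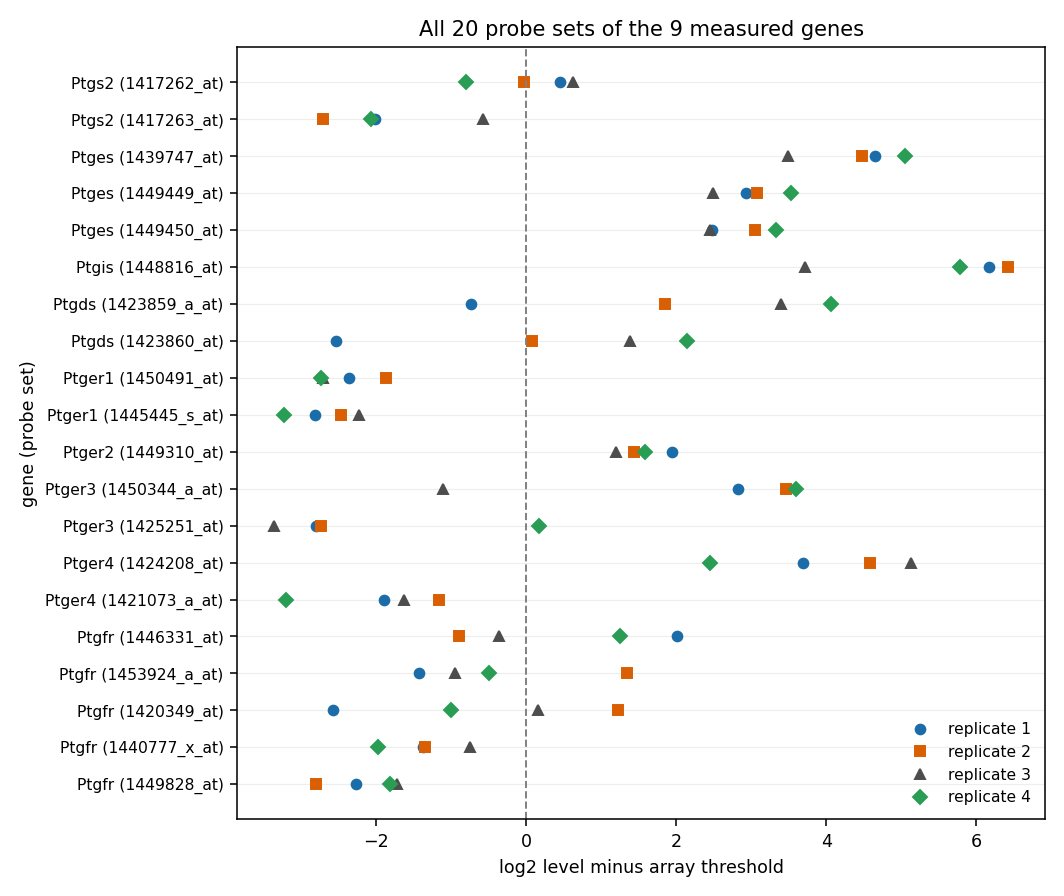
Distance of the log2 level from the array's threshold (horizontal axis, log2 units) for all 20 probe sets of the 9 measured genes, with 1 point per sample. The probe sets of Ptges and of Ptgds keep their highest sample, replicate 4, whereas 2 probe sets of Ptgfr place replicate 1 at opposite ends.

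In all, 8 of the 20 probe sets were above background, beside 40.9% of all probe sets tested. Another 6 of the 20 lay under the threshold in every sample. The share over all probe sets was not counted for this, so the 6 are a description only. Some names mark a probe set as able to match several transcripts, which may all be of the same gene. For Ptgds, Ptger3 and Ptger4 only 1 of the 2 probe sets was above background. For Ptgds and Ptger3 it was one of these marked probe sets. With those left out neither gene was called (adjusted p = 0.805 for Ptgds and 1 for Ptger3).

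The spread between samples was set against that of other probe sets of like level. Ptgds, Ptger3, Ptgis and Ptger4 had unadjusted p-values of 0.00592, 0.0088, 0.0258 and 0.0276 in the test of variance, which is 4 of the 6 genes called, beside 5.43% of all genes above background. None passed after adjustment over all probe sets above background (adjusted p = 0.58, 0.615, 0.729 and 0.735), and of all 18421 such probe sets 0 passed (0%) and 1155 (6.27%) had an unadjusted p under 0.05. Ptges and Ptger2 had unadjusted p-values of 0.256 and 0.832. Without replicate 3 the count of 4 fell to 0, without replicate 4 to 1 and without replicate 2 to 2. A gene had to pass a test on its mean to enter, and that test is harder to pass for a gene that varies. The liver gene Alb, at log2 levels of 14.58, 6.91, 11.84 and 7.88 in replicates 1 to 4, did not pass the spread test either (adjusted p = 0.36). Not passing it therefore does not show that a gene was alike in the samples.

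Replicate 3 held the lowest Ptgis and Ptger3 levels and the highest Ptger4 level, and several cell type lists moved in the same sample. The fibroblast median was 12.93, 13.29, 10.52 and 12.35 in replicates 1 to 4, with all 8 markers over the threshold in each and summed intensities of 129310, 121070, 22505 and 88811. The endothelial median was 10.83, 11.61, 9.17 and 11.28, with 8, 8, 7 and 8 of 8 markers over the threshold and sums of 12858, 22705, 4736 and 16912. Both lists were thus lowest in replicate 3, as Ptgis and Ptger3 were. The mesothelial median was also lowest there, at 7.31 against 11.73, 10.44 and 11.47 in replicates 1, 2 and 4. In replicate 3, 2 of 5 markers lay over the threshold, against 3 in each of the others. The summed intensity was not lowest there, at 22081 against 13219, 13320 and 24013. These markers did not move together. Msln and Gpm6a were lowest in replicate 3, at 7.31 and 10.04, while Upk3b was highest, at 14.345, and made up most of the sum. Lrrn4 and Wt1 lay under the threshold in every sample.

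The urothelial median was highest in replicate 3, as Ptger4 was, at 15.16 against 14.13, 14.38 and 14.27 in replicates 1, 2 and 4. In replicate 3 12 of 12 urothelial markers lay over the threshold, against 10 in each of the others, and their intensities summed to 412550 there and to 287650, 265110 and 237130 elsewhere. The smooth muscle median, at 10.13, 11.66, 11.06 and 10.78 in replicates 1 to 4, followed neither pattern, with 9, 10, 10 and 10 of 10 markers over the threshold and sums of 31472, 101140, 68012 and 45308. Skeletal muscle markers summed to 198540 there, with 593, 614 and 588 elsewhere. Of 4 adipocyte markers 0, 1, 2 and 1 lay over the threshold in replicates 1 to 4. Their intensities summed to 31464 in replicate 3 and to 186, 262 and 367 elsewhere. Nearly all of the sum in replicate 3 was that of Fabp4, with a log2 level of 14.93 there. Cidec and Lep lay under the threshold in every sample, and the median of the adipocyte list lay under it in replicate 3. The macrophage median was lowest in replicate 3, at 9.50 against 10.24, 10.55 and 9.87, with all 7 markers over the threshold in each sample and a sum of 11524 there against 14766, 16634 and 9903. No marker in these lists was at 0. The part of any of these lists in the levels of Ptgis, Ptger3 and Ptger4 was not tested, and in bulk samples fewer cells of a type and less RNA per cell cannot be told apart.

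**Figure D3:**
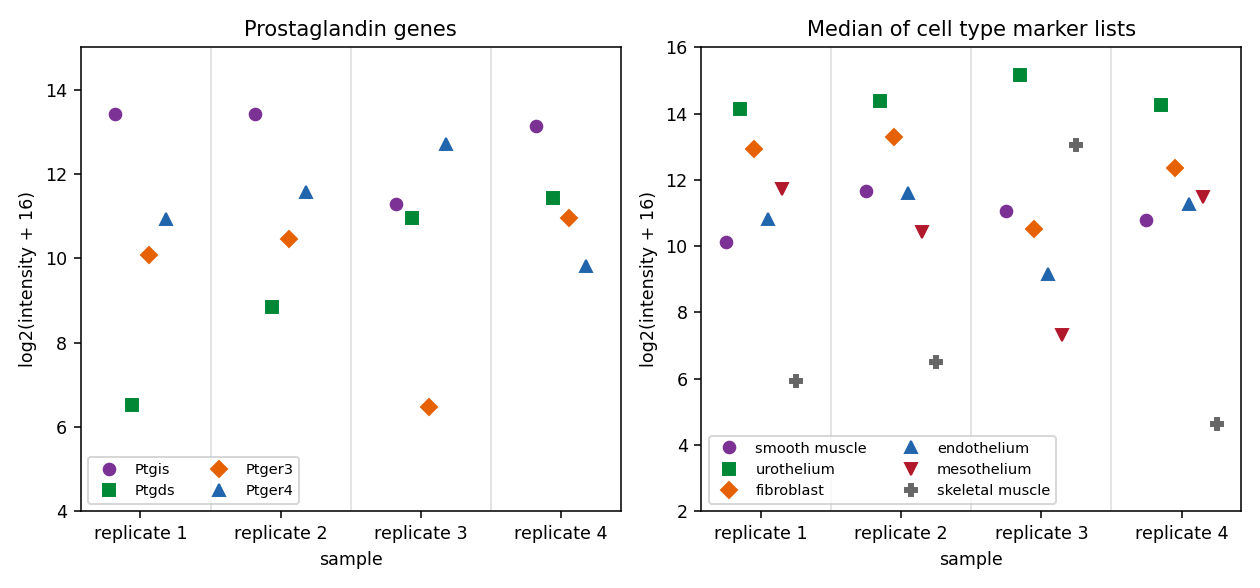
Log2 levels (vertical axes, log2(intensity + 16)) in each of the 4 samples for Ptgis, Ptgds, Ptger3 and Ptger4 on the left and for the medians of 6 marker lists on the right. In replicate 3 Ptgis and Ptger3 are at their lowest, with the fibroblast, endothelial and mesothelial medians, and Ptger4 is at its highest, with the urothelial and skeletal muscle medians. The mesothelial marker Upk3b, not drawn by itself, was highest in replicate 3.

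Ptgds, lowest in replicate 1 and highest in replicate 4, also stood beside lists of other organs that differed between samples. Of 7 male reproductive tract markers 5, 5, 2 and 1 lay over the threshold in replicates 1 to 4, with medians of 9.10, 12.10, 6.55 and 5.06 and sums of 6967, 66172, 44174 and 687. The sum in replicate 3 was mostly that of Pbsn, a prostate gene with a log2 level of 15.42 there. Liver markers lay over the threshold in 7, 1, 7 and 1 of 7 cases, with medians of 11.21, 5.87, 8.70 and 5.34 and sums of 46535, 445, 12505 and 510. These lists thus changed between samples as well. The control ratios of 3' to 5' signal were lowest in replicate 4, at 18.8 for Gapdh and 4.43 for Actb. The part of these lists and ratios in the Ptgds level was not tested.

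Promoter sequences are shown for the 3 genes called that differed most between samples and for the inducible Ptgs2. Each is the 250 bases before the gene's annotated start, 5' to 3' on the gene's strand, from RefSeq on GRCm38.p6, and 8 of the 10 genes had such an entry. Capitals mark matches, on either strand, to the letters TATAAA for the TATA box, the letters GGGCGG for the GC box, the letters TGACGT for the cyclic AMP response core, the letters CACGTG for the E-box or the letters CCAAT, with overlapping matches counted separately. The regions are chr1:150099781-150100030 on the plus strand for Ptgs2, chr2:25469750-25469999 on the minus strand for Ptgds, chr3:157566626-157566875 on the plus strand for Ptger3 and chr15:5244188-5244437 on the minus strand for Ptger4.
Ptgs2: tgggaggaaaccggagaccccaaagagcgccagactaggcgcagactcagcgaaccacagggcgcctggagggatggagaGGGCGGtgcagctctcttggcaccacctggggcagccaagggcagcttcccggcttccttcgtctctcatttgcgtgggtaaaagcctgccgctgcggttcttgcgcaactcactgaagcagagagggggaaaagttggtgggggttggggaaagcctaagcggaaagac
Ptgds: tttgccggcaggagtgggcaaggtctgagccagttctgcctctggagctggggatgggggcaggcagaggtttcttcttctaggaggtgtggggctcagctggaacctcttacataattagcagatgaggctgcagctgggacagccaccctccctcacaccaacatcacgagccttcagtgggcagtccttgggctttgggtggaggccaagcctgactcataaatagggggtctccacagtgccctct
Ptger3: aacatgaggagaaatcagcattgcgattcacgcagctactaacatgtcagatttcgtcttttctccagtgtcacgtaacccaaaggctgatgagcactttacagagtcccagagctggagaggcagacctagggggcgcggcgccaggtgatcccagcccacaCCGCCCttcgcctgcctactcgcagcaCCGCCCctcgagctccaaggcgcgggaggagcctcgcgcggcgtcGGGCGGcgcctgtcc
Ptger4: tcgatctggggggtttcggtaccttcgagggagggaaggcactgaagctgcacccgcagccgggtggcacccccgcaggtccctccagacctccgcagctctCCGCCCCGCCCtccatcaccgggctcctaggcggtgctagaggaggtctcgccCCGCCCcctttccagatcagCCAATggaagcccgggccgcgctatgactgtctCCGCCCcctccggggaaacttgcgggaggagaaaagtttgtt

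The GC box had 4 matches in the Ptger4 window, 3 in that of Ptger3, 2 in that of Ptges and 1 each in those of Ptgs2 and Ptgfr. A GC box occurred in 32.7% of the 32851 promoter windows of this length. The Ptger4 and Ptger2 windows each held 1 CCAAT, which 33.8% of windows hold. None of the motifs was found in the Ptgds window. The TATA box, the cyclic AMP response core and the E-box, which 12.4%, 6.47% and 6.02% of windows hold, were found in none of the 8 windows of the set. Bases after the annotated start were not searched, so motifs there would be missed. A match is a description of letters and does not show that a factor binds.

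For the 3 genes called with the largest SD, the named genes above background with the most similar pattern were sought by the root mean square difference of mean-centred log2 levels over the 4 samples. Ptger4 was closest to Hsd17b7, an enzyme of steroid and cholesterol metabolism, at 0.09 log2 units. Slc7a2, a cationic amino acid transporter, and Mreg followed at 0.13 and 0.18, and 6 of 10520 genes lay within 0.25. Ptger3 was closest to Lox, the lysyl oxidase that cross-links collagen and elastin, at 0.19, followed by Sema3e and Ctla2b at 0.24 and 0.25, with 3 genes within 0.25. Lox had levels of 10.66, 10.74, 6.88 and 11.02 in replicates 1 to 4, beside 10.07, 10.46, 6.47 and 10.95 for Ptger3. For Ptgds no gene lay within 0.25, and the closest, Gm5113, Pcp4 and Arfgef3, were 0.70, 0.74 and 0.81 away. In replicate 3 Ptger3, Lox and Ctla2b lay under the threshold of 7.57, and Sema3e lay at it, at 7.58. In replicate 1 Ptgds, Pcp4 and Arfgef3 lay under the threshold of 7.25. Such readings are at background, so the likeness in those samples is not one of measured levels. These patterns rest on 4 samples.

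Other genes of the pathway were read from lists of arachidonic acid supply, other synthases and receptors, removal, the lipoxygenase branch, receptor effectors and the immediate early genes above. Of 76 listed genes 72 had a named probe set, and 47 of these were above background, beside 57.8% of all named genes. The list counts below are to be read beside that same 57.8%, and no list was tested as a group.

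Genes that remove or move prostaglandins were above background in 5 of 5 cases, with a median of 6.73 log2 units over the thresholds. Hpgd, the dehydrogenase that starts prostaglandin breakdown, had a level of 13.79 ± 0.47, from a probe set able to match several transcripts. With such probe sets left out it lay 1.72 log2 units over the thresholds in place of 6.49 and was still called. Abcc4, an exporter that carries PGE2 out of cells, had 14.88 ± 0.16, and Slco2a1, the prostaglandin uptake carrier, had 14.03 ± 0.84 (SD, n = 4 each). Slco2a1 was lowest in replicate 3, at 12.88 against 13.95 to 14.78, like Ptgis. Ptgr1 and Ptgr2, which reduce the oxidised products, had 14.84 ± 0.20 and 13.11 ± 0.11 (SD, n = 4 each) and varied little. Hpgd and Ptgr2 were also lowest in replicate 3, at 13.39 and 12.96, while Ptgr1 was highest there, at 15.03. Abcc4 was neither.

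Arachidonic acid supply was above background in 6 of 12 genes. Pla2g4a, the cytosolic phospholipase A2 that releases arachidonic acid on a calcium signal, was above background (adjusted p = 2.41e-07). Its levels were 13.92, 14.26, 12.87 and 13.90 in replicates 1 to 4, lowest in replicate 3 like Ptgis. Pla2g6, Pla2g10 and Pla2g12a went the other way, highest in replicate 3 at 9.45, 8.62 and 9.29. The other called genes of this list were neither highest nor lowest there. The share of all genes lowest in replicate 3 was not counted. Mgll, a lipase that frees arachidonic acid from an endocannabinoid, had 9.79 ± 0.76 (SD, n = 4), and with probe sets able to match several transcripts left out its distance was -1.61 log2 units and it was not called. Pla2g4a has only such a probe set and could not be measured that way. The secreted phospholipases Pla2g2a, Pla2g2d, Pla2g2e, Pla2g5 and Pla2g1b were not called, while Pla2g10 was at 8.20 ± 0.50 (SD, n = 4, adjusted p = 0.0254). Pla2g10 lost its call without replicate 2 (adjusted p = 0.0964), without replicate 3 (0.0605) and without replicate 4 (0.0705). The count was 3 at the 99th percentile, 1 at the threshold of 3 MAD over the median and 2 when probe sets able to match several transcripts were left out.

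Of 6 other synthases 3 were above background. Cbr1, a carbonyl reductase that can turn PGE2 into PGF2-alpha, had 12.53 ± 0.25, Prxl2b, a PGF synthase, had 11.76 ± 0.54, and Ptges2, a second PGE synthase, had 9.02 ± 0.63 (SD, n = 4 each). Hpgds, the PGD synthase of mast cells and other blood cells, had 5.55 ± 1.22 and lay under the threshold in all 4 samples, and 1 of 8 mast cell markers was above background. Tbxas1, the thromboxane synthase, had 6.50 ± 1.24 (SD, n = 4) and lay over the threshold only in replicate 2.

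None of 4 other prostanoid receptors was above background. Ptgir, the receptor for prostacyclin, had levels of 6.98, 6.08, 7.03 and 4.88 in replicates 1 to 4 and lay under the threshold in each. Ptgdr, the PGD2 receptor that raises cyclic AMP, lay over the threshold in 3 samples at 7.40 ± 0.50 (SD, n = 4, adjusted p = 0.787). The thromboxane receptor Tbxa2r and the second PGD2 receptor Ptgdr2 had 6.63 ± 0.51 and 4.93 ± 0.40 (SD, n = 4 each). The synthases Ptgis and Ptgds were thus called while the receptors for their products were not, although a call on one probe set per receptor does not show that a transcript was absent.

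**Figure D4:**
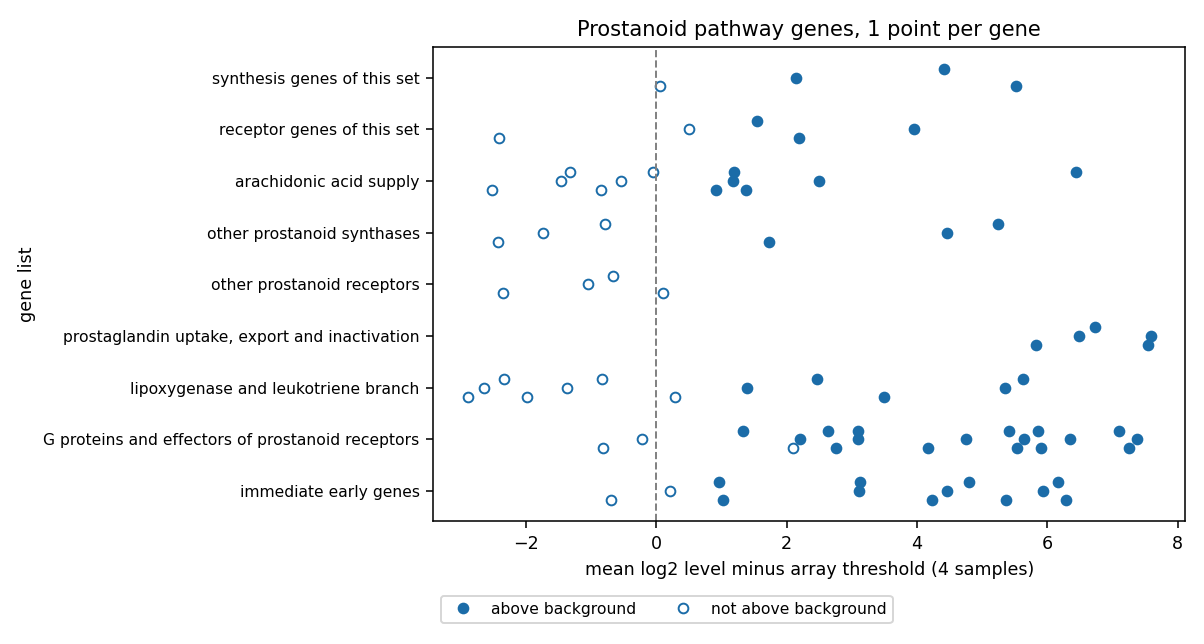
Mean distance of each gene's log2 level from the array thresholds (horizontal axis, log2 units, over 4 samples) for 9 gene lists, with 1 point per gene, filled where the gene was above background. The 5 genes of uptake, export and inactivation all lie more than 5 log2 units over the threshold, and 0 of the 4 other receptors is filled.

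Signalling genes below the receptors were above background in 17 of 20 cases. Gnas, the G protein through which Ptger2 and Ptger4 act, had 14.67 ± 0.24, and Gnaq, used by Ptgfr, had 13.14 ± 0.28 (SD, n = 4 each). With the probe sets able to match several transcripts left out, Gnas was not called (adjusted p = 1). Adcy6 and Adcy9, adenylyl cyclases that make cyclic AMP, had 12.71 ± 0.53 and 12.05 ± 0.30 (SD, n = 4 each). Adcy7, another of these, had 11.05, 11.95, 4.71 and 9.83 in replicates 1 to 4 and was called only without replicate 3 (adjusted p = 5.11e-05, against 0.112 with all samples).

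In the lipoxygenase branch, which makes leukotrienes and related lipids from the same arachidonic acid, 5 of 12 genes were above background. Alox5, which starts leukotriene synthesis, had 8.68 ± 0.14, and its partner Alox5ap had 10.79 ± 0.08 (SD, n = 4 each), both with little spread. Alox12, a lipoxygenase known from platelets and epithelium, had 13.41, 13.12, 10.60 and 13.43 in replicates 1 to 4, and was thus low in replicate 3 as Ptgis was. Alox15 and Lta4h, also called, were lowest there too, at 8.53 and 12.49. Alox5ap was highest there, at 10.90, and Alox5 was neither. The leukotriene receptors Cysltr1, Cysltr2 and Ltb4r1 were not called. The count was 3 at the threshold of 3 MAD over the median.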

How the data were processed

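Intensities were deposited by the authors, unlogged, 1 for each probe set on each array. The submitters' processing notes name GCOS, Affymetrix's software; version and algorithm: not given in the sources used here. Leaving out the top and bottom 2%, every array's mean was 1500, which shows scaling before deposit, and no further scaling was applied. Of 45101 probe sets 64 controls were left out. Gene names came from the platform's annotation, where 34945 probe sets have 1 symbol, 932 several and 9160 none. Gene IDs of 34741 were found in RefSeq's table of GRCm38.p6, which changed 0 symbols.

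Log2(intensity + 16) was tested with limma 3.58.1 in R 4.3.3, with trended robust variances and Benjamini-Hochberg adjustment over all 45037 probe sets. One probe set above background sufficed to call a gene, and 0 of the 85 chemosensory probe sets were called. The spread test was the F ratio of the variance to limma's prior variance, with 3 and 5.24 degrees of freedom, over probe sets above background. Both tests were also run on simulated data. There the background probe sets had means under the threshold, so false calls close to it were not measured. No batch is given in the labels, and the number of arrays limits the precision.

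The members and the gene lists were chosen with earlier results of these data known, as were the tests and the alternatives. The rule named all members, any gene of the pathway lists and, for the 3 called members with the largest SD, the 3 genes nearest in pattern. The other marker lists were adipocyte (0 of 4 above background), kidney (0 of 5), liver (2 of 7), macrophage (7 of 7) and nerve (1 of 3). The share over all named genes was 57.8%.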

Additional observations from a re-analysis of the deposited data

Results flagged for a closer look

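Dixon's test for 1 sample far from the rest was run on 92 probe sets. These were the 20 of the set and those of the other pathway genes. It picked out 9, where its nominal rate is about 1 in 20. The share picked out over all probe sets of these arrays was not counted, so the 9 are a description only. Among the set itself Ptgis had a low value in replicate 3 (11.29 against 13.14 to 13.42), the second Ptges probe set a high value in replicate 4 (10.88 against 10.05 to 10.18) and the second Ptger3 probe set a high value in replicate 4 (7.528 against 4.21 to 4.45). The last lay only 0.17 log2 units over that array's threshold. In replicate 3 Alox12 was low (10.6 against 13.12 to 13.43) and Plcb4, a phospholipase C, was high (15.06 against 14.34 to 14.42). Adcy6 was high in replicate 4 (13.49 against 12.35 to 12.51). The remaining 3 were genes not above background, Pla2g2d and Tbxa2r in replicate 2 (7.498 and 7.396) and Pla2g2e in replicate 1 (5.351).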

How the results depend on the processing

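The count of 6 genes of the set above background was also 6 with pseudocounts of 1 and 64, after quantile normalization, with the brightest probe set deciding, after a filter on low values and with plain eBayes. It was 4 at the 99th percentile, 4 with probe sets able to match several transcripts left out, 4 when a gene had to lie over the threshold in all samples without a test, 3 with the threshold 3 MAD over the median, and 4 to 5 when 1 replicate was left out. The 47 pathway genes ranged from 33 to 47. The count of genes of the set passing the spread test was 0 under all alternatives run, and 2 had an unadjusted p under 0.05 at either stricter threshold and with probe sets matching several transcripts left out, while over all probe sets 7 passed without replicate 2 and 4 without replicate 3. Quantile normalization moved the median of all probe sets by 0.12, 0.21, -0.24 and -0.03 log2 units in replicates 1 to 4. No paired analysis was possible because all samples belong to 1 group. The means of Ptgs2 and Ptgfr lay 0.06 and 0.50 log2 units from the thresholds, so their calls are limited by signal over background.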
